A study of Mus musculus with 6 samples.

Results

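Basp1, Ncald, Ica1, Prrt4, Cadps2, Calb1 and Penk are genes best known from neurons and from cells that store and release peptides. They were 7 of the 53647 features in the deposited table and 7 of the 1567 placed genes defined further on, taken by their Ensembl identifiers, and were chosen with the difference between the groups in view. Their values are therefore described without a test. RNA was sequenced from D2.OR, a breast cancer line of the mouse, after 7 days of 3D culture on a basement membrane extract. The cells carried a lentiviral hairpin against SLX4IP (shSLX4IP, 3 libraries) or a scrambled, non-targeting hairpin (Scram, 3 libraries). Cells of both groups were transduced and selected with puromycin, and the labels speak of a hairpin against SLX4IP without giving its sequence. The labels call the replicates biological without naming separate cultures, so p-values measure only the spread between these samples, which may be partly technical. Each library is named by the letter of its column, and 3 values for a group are always given in the order A, B, C.

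Neurons and endocrine cells keep peptides in dense-core vesicles and release them when calcium rises. Penk encodes proenkephalin, the precursor of the enkephalin opioid peptides. Cadps2 encodes a protein that primes dense-core vesicles for release, and Ica1 encodes an islet autoantigen with a membrane-bending domain that acts in secretory granule formation. Calb1 encodes the calcium buffer calbindin, and Ncald encodes neurocalcin delta, a calcium sensor of neurons. Basp1 encodes a protein on the inner face of the membrane of growing axons. Prrt4 encodes a proline-rich transmembrane protein.

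The table can be read by gene symbol only in part. Genes are called placed where they lay inside 4 runs of highly expressed neighbours, on chromosomes 4, 6, 15 and 18, or on the mitochondrial genome, and all 7 members were placed. Elsewhere many housekeeping genes are listed at 0. Inside the runs such genes were not all high either. The mean log2(normalised count + 1) of Cox6c was 5.17 in shSLX4IP and 12.1 in Scram. That of Polr2k was 2.88 and 6.23, while Rps20 was high in both groups (14.9 and 15.5). The reason was not tested, so a placed gene listed near 0 is not shown to lack RNA. The target gene Slx4ip lies outside and was listed at 0 in all 6 libraries, so it gave no check of the knockdown. The 12 pan-neuronal and neuroendocrine markers and the 4 epithelial markers that were looked for also lie outside and were not read, nor were 3 of 4 fibroblast markers. The remaining fibroblast marker, Col1a2, was placed. Its mean log2(normalised count + 1) was 8.08 in shSLX4IP and 14.5 in Scram, and no cell type is read from it alone. Recovered depth was 5433573 to 6693111 reads per library. Reads here are the whole numbers recovered from the normalised values, and the sources used here do not say that they were counted directly. Scram A stood apart. Its log2 ratio to the average of the other Scram libraries, taken for placed nuclear genes averaging 100 or more, had a median of 0.87 in the 115 genes with the shortest exonic length and of -0.27 in the 114 with the longest.

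The 4 members with a RefSeq promoter entry were Basp1, Ica1, Prrt4 and Cadps2, shown here because 3 of them differed between the groups and Cadps2 was silent. Each window runs from 250 bases before to 50 after a start site (GRCm38.p6, all on the minus strand, 5′ to 3′). Capitals mark the GC box GGGCGG, the E-box CACGTG and the TATA box TATAAA, searched on both strands.
Basp1, chr15:25413715-25414014: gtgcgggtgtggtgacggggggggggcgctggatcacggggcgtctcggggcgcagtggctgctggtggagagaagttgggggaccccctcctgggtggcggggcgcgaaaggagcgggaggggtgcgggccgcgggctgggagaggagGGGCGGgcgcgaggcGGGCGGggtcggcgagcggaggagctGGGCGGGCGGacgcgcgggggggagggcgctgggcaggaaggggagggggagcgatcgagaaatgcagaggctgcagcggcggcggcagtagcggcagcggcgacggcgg
Ica1, chr6:8778435-8778734: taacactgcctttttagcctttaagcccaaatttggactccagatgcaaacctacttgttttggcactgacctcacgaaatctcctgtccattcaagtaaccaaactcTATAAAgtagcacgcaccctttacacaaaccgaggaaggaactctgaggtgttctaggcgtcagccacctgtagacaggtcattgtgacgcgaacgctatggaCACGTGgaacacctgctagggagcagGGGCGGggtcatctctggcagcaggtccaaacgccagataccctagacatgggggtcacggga
Prrt4, chr6:29179535-29179834: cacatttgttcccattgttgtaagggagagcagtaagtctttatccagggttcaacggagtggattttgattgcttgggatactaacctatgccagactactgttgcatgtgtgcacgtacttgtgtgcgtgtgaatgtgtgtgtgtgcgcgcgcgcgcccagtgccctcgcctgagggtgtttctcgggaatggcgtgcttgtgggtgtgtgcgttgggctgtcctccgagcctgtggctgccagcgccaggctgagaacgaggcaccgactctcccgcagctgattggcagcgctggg
Cadps2, chr6:23839372-23839671: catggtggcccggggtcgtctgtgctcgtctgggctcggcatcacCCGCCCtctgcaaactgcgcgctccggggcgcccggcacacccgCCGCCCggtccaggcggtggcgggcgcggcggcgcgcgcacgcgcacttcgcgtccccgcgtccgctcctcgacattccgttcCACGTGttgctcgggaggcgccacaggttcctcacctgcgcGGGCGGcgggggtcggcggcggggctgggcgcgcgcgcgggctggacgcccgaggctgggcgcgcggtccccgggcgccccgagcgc

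Basp1 and Cadps2 had the windows richest in CpG. Basp1 had 38 CpG dinucleotides, more than 95.0% of 32851 RefSeq promoters, and 4 GC box matches, the last 2 of which overlap. Cadps2 had 54 CpG dinucleotides, more than 99.7% of promoters, with 3 GC box matches and 1 E-box. Ica1 had 11 CpG dinucleotides, more than 58.6% of promoters, and Prrt4 had 18, more than 70.3%. Ica1 held 1 match each of the GC box, the E-box and the TATA box. No searched motif was in the Prrt4 window, and the cyclic AMP element TGACGTCA was in none of the 4. Of all promoters, 35.7% held a GC box, 7.15% an E-box, 13.6% a TATA box and 1.79% the cyclic AMP element.

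The members fell into 3 patterns. Basp1 and Ncald had reads in each Scram library and few or none in shSLX4IP, Ica1 and Prrt4 were high in shSLX4IP and low in Scram, and Cadps2, Calb1 and Penk were silent or nearly so in both groups. The groups did not overlap in 4 of the 7 members, beside 53.5% of all 8127 features tested and 67.1% of the 462 placed features tested. The rule used this contrast, so nothing is read from that count. With bulk RNA, fewer cells that express a gene and less RNA per cell cannot be told apart.

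**Figure D1:**
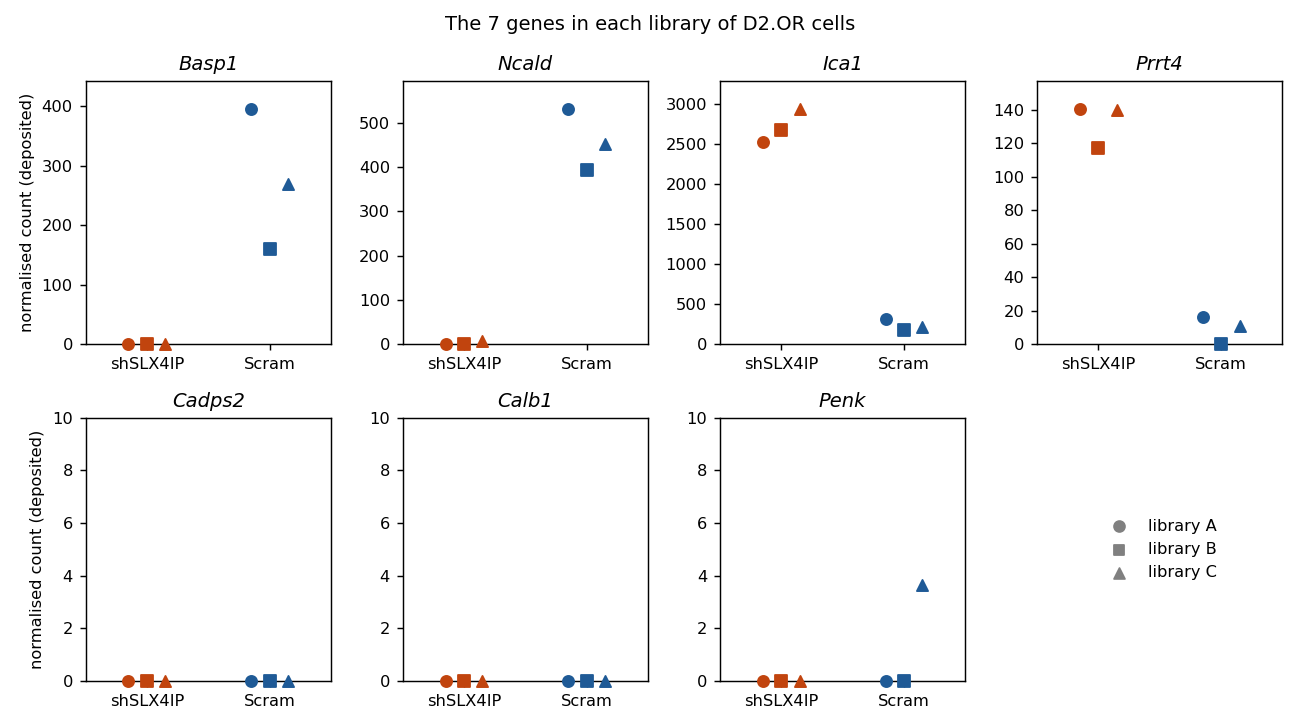
Deposited normalised count of each of the 7 genes (vertical axis, from 0, scaled per gene) in the 3 shSLX4IP and 3 Scram libraries, 1 point per library. Basp1 and Ncald have points near or at 0 in shSLX4IP, Ica1 and Prrt4 are high in shSLX4IP, and the lower row stays at or near 0.

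Basp1 (ENSMUSG00000045763.9, GRCm38 chromosome 15, 25363277 to 25413764, minus strand) had reads in each Scram library and in none of the shSLX4IP libraries. It was listed at 0, 0 and 0 in shSLX4IP, against normalised counts of 395, 161 and 270 in Scram. In recovered reads these were 0, 0 and 0 in shSLX4IP, against 270, 172 and 296 in Scram. In normalised counts Scram A was the highest and Scram B the lowest of the expressing libraries, a 2.46-fold range. In reads Scram C was the highest. In Scram A 1 read stood for 1.46 normalised counts, against 0.934 in Scram B and 0.911 in Scram C. If these are counted reads, 0 at this depth leaves room for up to 3. That corresponds to 2.72, 2.93 and 2.39 normalised counts in shSLX4IP and covers counting error only. Basp1 has 2009 exonic bases, which puts it among the shorter genes, and the same log2 ratio of Scram A was 0.88 for it. Without Scram A its mean in shSLX4IP minus that in Scram was -215 normalised counts, against -275 with it.

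Ncald (ENSMUSG00000051359.16, chromosome 15, 37366175 to 37792570, minus strand) had a similar contrast with less spread in Scram. Its normalised counts were 0, 0 and 6.37 in shSLX4IP, against 530, 392 and 451 in Scram. The value in shSLX4IP C rests on 8 reads, and every Scram library held at least 362. In normalised counts the highest Scram library, A, was 1.35-fold above the lowest, though A held the fewest reads of the Scram libraries. On the log2(value + 1) scale the difference was -7.87, and it depended on the pseudocount (-6.13 with 5 in place of 1) and on shSLX4IP C (-8.83 without it). Annotated exons of Ncald share 633 bases with Gm28221 on the other strand and Gm49397 on the same strand, and both were listed at 0 throughout.

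Ica1 (ENSMUSG00000062995.13, chromosome 6, 8630527 to 8778488, minus strand) had the highest value of any member in shSLX4IP and was expressed in both groups, though below Ncald and Basp1 in Scram. Its normalised counts were 2527, 2685 and 2940 in shSLX4IP, against 310, 183 and 218 in Scram. The lowest shSLX4IP library was far above the highest Scram library. The mean was 2717 ± 209 in shSLX4IP and 237 ± 65.8 in Scram (SD, n = 3 each), a ratio of 11.5. The coefficient of variation was 7.68% in shSLX4IP and 27.8% in Scram. Every library contained Ica1 reads, unlike those of Basp1, which none of the shSLX4IP libraries held.

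Prrt4 (ENSMUSG00000079654.4, chromosome 6, 29169232 to 29179584, minus strand) was low in Scram and present at a modest level in shSLX4IP. Its normalised counts were 140, 117 and 140 in shSLX4IP, against 16.1, 0 and 10.9 in Scram. The Scram values rest on 11, 0 and 12 reads and the shSLX4IP values on 155, 120 and 176. The groups did not overlap, but the size of the difference depended on Scram B. On the log2(value + 1) scale it was 4.50 with all libraries, 3.22 without Scram B and 5.27 without Scram A.

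Cadps2, Calb1 and Penk did not reach the mean of 10 that a feature needed to be tested. Cadps2 (ENSMUSG00000017978.19, chromosome 6, 23262773 to 23839421, minus strand) and Calb1 (ENSMUSG00000028222.3, chromosome 4, 15881264 to 15908064, plus strand) were listed at 0 in all 6 libraries. Penk (ENSMUSG00000045573.10, chromosome 4, 4133531 to 4138819, minus strand) was at 0, 0 and 0 in shSLX4IP, against 0, 0 and 3.65 in Scram. That single value is 4 reads. If reads were counted, 0 allows up to 3 per library, which corresponds to 2.39 to 4.39 normalised counts and covers counting error only. Such silence was common: of 569 placed nuclear protein-coding genes, 148 (26.0%) were listed at 0 in all 6 libraries and 215 (37.8%) had a mean under 10.

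Levels per exonic kilobase separated the expressed members further. In shSLX4IP, Ica1 averaged 838 normalised counts per kilobase, above 82.6% of 431 placed nuclear features tested, and Prrt4 averaged 38.9, above 17.6%. In Scram, Basp1 averaged 137 per kilobase, above 34.8% of these features, and Ica1 averaged 73.1, above 26.5%. Ncald averaged 53.4 per kilobase in Scram, above 23.4% of these features. Ncald, with 8581 exonic bases, was therefore below Basp1 per kilobase although its value per gene was higher. Prrt4 in Scram averaged 2.64 per kilobase, above 5.10%. Apart from Ica1 in shSLX4IP, each member was in the lower part of the expressed range even where it was on.

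**Figure D2:**
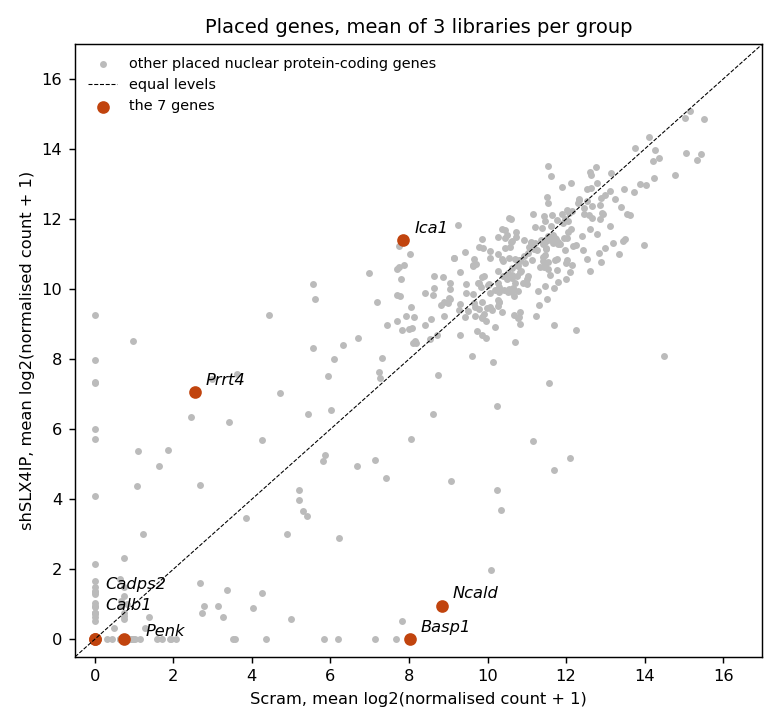
Mean log2(normalised count + 1) of each placed nuclear protein-coding gene in shSLX4IP (vertical axis) and Scram (horizontal axis), 3 libraries per group, with the 7 members in colour. Ica1 and Prrt4 lie above the line of equal levels, Ncald and Basp1 lie near the floor of the vertical axis, and Cadps2, Calb1 and Penk lie near the origin.

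Few placed genes had a pattern as complete as that of Basp1. Of the 569, 3 were at 0 in each shSLX4IP library and at 100 or more in each Scram library, namely Basp1, Fzd8 and Hrct1. Allowing values under 10 in shSLX4IP added Ncald, Matn2 and Ankrd33b, for 6 in all. In the other direction, 4 genes were at 0 in each Scram library and at 100 or more in each shSLX4IP library, Prrt4 not among them. Allowing values under 20 in Scram, a wider limit than the 10 used for shSLX4IP, gave 6 genes. A limit of 10 would leave out Prrt4, which was at 16.1 in Scram A. These were Prrt4, Cntfr, Cped1, Dlx5, Fam71f1 and Plag1. These limits were set after the values were seen. A value of 0 beside a high one can also occur within a group: 3 placed genes with a mean of at least 10 were at 0 in 1 library and at 100 or more in another of the same group. None of them is a member.

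The placed genes nearest to each expressed member in Euclidean distance of log2(value + 1) over the 6 libraries were found next. For Basp1 they were Hrct1 (distance 0.88) and Fzd8 (1.69), a Wnt receptor gene on chromosome 18. For Ncald they were Matn2 (3.49), which encodes a matrix protein of the matrilin family, and Hrct1 (3.70). For Ica1 they were Rragd (1.05), a GTPase gene of amino acid sensing, and Zfp462 (1.28), a zinc finger gene. Rragd was at 2251, 1977 and 1924 in shSLX4IP, against 242, 253 and 286 in Scram. For Prrt4 they were Aqp3 (3.72), which encodes a water and glycerol channel, and Cmbl (4.11), an esterase gene. Likeness here is a description of 6 values per gene.

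The tested genes next to the expressed members (Basp1, Ncald, Ica1 and Prrt4) along the chromosome mostly differed less between groups than the member. Direction could be shared: all 6 tested neighbours of Basp1 had a lower mean log2 value in shSLX4IP, and 3 were called lower. For Cadps2, Calb1 and Penk the tested neighbours cannot show whether silence was shared. A gene had to pass the filter on its mean to be tested, so a silent neighbour was left out. The 3 nearest tested protein-coding genes on each side gave 42 neighbours, with distances measured between gene ends, of which 7 were called higher and 9 lower in shSLX4IP by limma at an adjusted p under 0.05 over all features. These shares are near those of placed genes in general, of which 17.3% were called higher and 22.9% lower. Among all features tested 11.7% were called higher and 11.3% lower.

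The nearest tested gene to Basp1 was lower in shSLX4IP but was read in all 6 libraries. This gene, Myo10, which encodes a myosin of filopodia, lies 209 kb away and averaged 1639 ± 131 in shSLX4IP and 4546 ± 96.4 in Scram (SD, n = 3 each). Its log2 fold change was -1.47 (SE 0.12, limma adjusted p = 0.00120). Retreg1, the next gene, did not pass (log2 fold change -0.31, adjusted p = 0.107), and Zfp622 at 571 kb was called lower (-1.21, adjusted p = 0.0410). On the other side the nearest tested gene, Acot10, was 4697 kb away, and Cdh18, a cadherin gene that lies between, was listed at 0 throughout. Drosha, 12428 kb away on that side, was called lower (log2 fold change -0.84, adjusted p = 0.00770). Ncald sits 2.61 kb from Grhl2, an epithelial transcription factor gene with 16.3, 2.93 and 20.7 in shSLX4IP, against 68.8, 16.8 and 61.1 in Scram. Grhl2 did not pass (adjusted p = 0.177). On the other side of Ncald, Rrm2b rose (log2 fold change 1.39, SE 0.21, adjusted p = 0.00843), with 1044 ± 79.6 in shSLX4IP and 402 ± 86.7 in Scram. Of other neighbours of Ncald, Zfp706 (log2 fold change -1.87, adjusted p = 0.00486) and Ywhaz (-1.50, adjusted p = 0.00107) fell and Klf10 rose (1.03, adjusted p = 0.0112).

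None of the 6 neighbours of Ica1 was called. The nearest, Glcci1, was at 788, 814 and 920 in shSLX4IP, against 98.1, 183 and 5.47 in Scram. Its groups did not overlap, with a log2 fold change of 4.10 (SE 1.25), but it did not pass (adjusted p = 0.0671). Gm45062, whose gene model covers that of Glcci1 on the same strand, could share its reads. Prrt4 is flanked by Rbm28 at 4.23 kb, with 2811 ± 41.2 in shSLX4IP and 3965 ± 506 in Scram (adjusted p = 0.0547), and by Impdh1 at 20.9 kb, with 4881 ± 127 in shSLX4IP and 4221 ± 932 in Scram (adjusted p = 0.371). Neither passed, and both had high values in every library beside the low ones of Prrt4. The 1 called neighbour of Prrt4 was Fam71f2, 100 kb away, which had the same direction. It was at 54.4, 59.6 and 43.0 in shSLX4IP and at 0 in each Scram library (adjusted p = 0.00116).

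The silent members differed in their surroundings. Taking the 3 nearest placed protein-coding genes on each side whatever their level, all 6 around Cadps2 were listed at 0 in every library, as were 2 of 6 around Penk and 1 of 6 around Calb1. The nearest outside the span of Cadps2 was Fezf1, a forebrain transcription factor gene 14.4 kb away. Rnf133 and Rnf148, which overlap that span, were also listed at 0 in every library. The values that follow are of genes that reached a mean of 10, so that they were expressed was a condition of their choice. Decr1, which encodes a mitochondrial reductase of fatty acid oxidation, lies 9.18 kb from Calb1 and had 2844, 2803 and 2744 in shSLX4IP, against 2432, 1007 and 1097 in Scram (adjusted p = 0.0953). Nbn, 49.9 kb from Calb1, fell to 987 ± 22.5 in shSLX4IP, against 2503 ± 292 in Scram (log2 fold change -1.33, SE 0.14, adjusted p = 0.00283). The nearest tested gene to Penk, Gm11808 at 160 kb, had 7110 ± 791 in shSLX4IP and 10967 ± 8969 in Scram (adjusted p = 0.664). Plag1, a zinc finger gene 195 kb from Penk, was at 369, 435 and 310 in shSLX4IP, against 0, 0 and 6.38 in Scram (adjusted p = 0.00348). The tested genes nearest to Cadps2 were Fam3c at 907 kb on one side and Ndufa5 at 679 kb on the other. Ndufa5 was above 0 in only 1 library of each group. The next gene, Wasl, an actin nucleation regulator, rose to 5582 ± 22.4 in shSLX4IP, against 3011 ± 473 in Scram (log2 fold change 0.90, SE 0.15, adjusted p = 0.0124). Pot1a, further on, also rose (log2 fold change 1.30, adjusted p = 0.00189). Beyond Fam3c, Cped1 was at 570, 631 and 644 in shSLX4IP and at 0 in each Scram library (adjusted p = 0.000203).

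**Figure D3:**
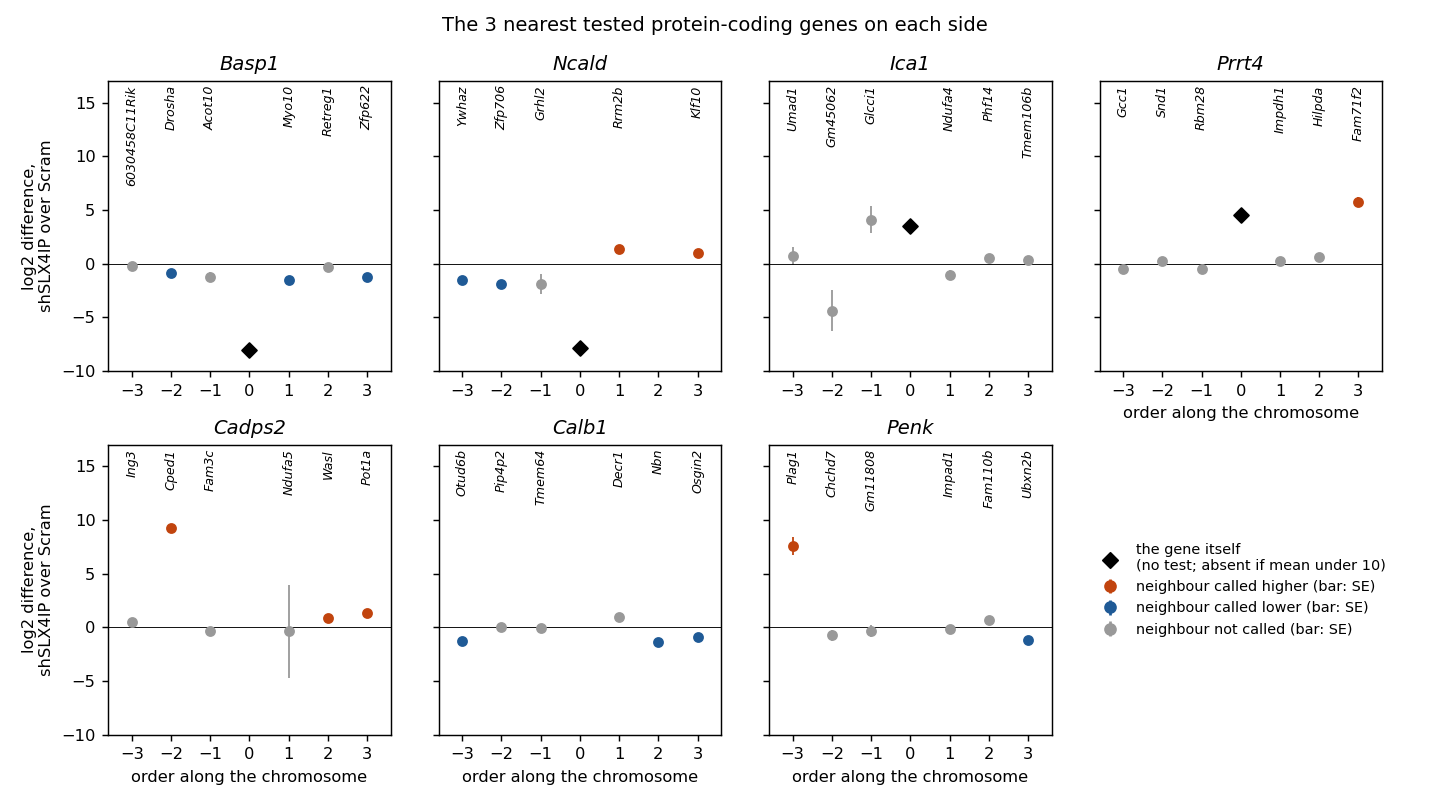
Log2 difference on the log2(value + 1) scale, shSLX4IP over Scram (vertical axis), of 41 of the 42 genes that are the 3 nearest tested protein-coding genes on each side of each member, by order along the chromosome (horizontal axis, 0 is the member), with SE bars from limma. The 4 members with a mean of at least 10, shown as diamonds, lie apart from most neighbours. Glcci1 lies near Ica1, and Fam71f2 lies above Prrt4 in the same direction. Points of genes at 0 in all libraries of a group, such as Basp1, Cped1 and Fam71f2, depend on the pseudocount.

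A wider set of 86 neuronal and secretory genes, grouped by role, left out the members. Of these, 79 were placed, 33 passed the filter and were tested, and 46 of the 79 (58.2%) had a mean under 10, with 25 at 0 in all 6 libraries. Of the 33 tested, 5 were called higher and 12 lower in shSLX4IP, that is 51.5%, beside 40.3% of placed features and 23.0% of all features tested. The median log2 fold change was -0.30 over the 33, -0.23 over placed features and 0.25 over all features. Without Scram A 8 were higher and 15 lower, and without any 1 shSLX4IP library 3 were higher and 6 or 7 lower.

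Genes of the growth cone, axon and synapse mostly had values too low to test. All 22 were placed, 16 of them under the filter and 8 at 0 throughout, and of 6 tested 1 rose and 2 fell. Sema5a, an axon guidance gene, was at 517, 492 and 503 in shSLX4IP, against 2368, 4459 and 3450 in Scram. Its log2 fold change was -2.71 (SE 0.25, limma adjusted p = 0.00169). Myo10, given above as the neighbour of Basp1, was the other gene that fell. Ankrd6, which encodes a Wnt pathway regulator, rose to 339 ± 43.1 in shSLX4IP, against 84.2 ± 32.8 in Scram (log2 fold change 2.07, SE 0.38, adjusted p = 0.0152). That call was lost without any 1 shSLX4IP library, with an adjusted p of up to 0.0750.

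Genes of the vesicle traffic list were mostly expressed. The list also holds general secretory genes such as Sec61b, so it is not a like comparison for the silent Cadps2. Of 15 placed, 13 were tested, of which 1 rose and 6 fell. Snx30, a sorting nexin gene, fell to 1472 ± 75.1 in shSLX4IP, against 6213 ± 547 in Scram (log2 fold change -2.07, SE 0.13, adjusted p = 0.000515), and it shares exonic bases with Gm12543 on the same strand. Erp44, which encodes a thiol protein that retains cargo in the early secretory pathway, fell by 1.33 on the log2 scale (SE 0.19, adjusted p = 0.00626). Sec61b, a subunit gene of the endoplasmic reticulum translocon, was at 1979, 2053 and 2181 in shSLX4IP, against 21027, 6629 and 8237 in Scram. It has 1271 exonic bases and was highest in Scram A, the library with higher values for short genes. Its log2 fold change was -2.34 (SE 0.44, adjusted p = 0.0169), and it was -1.84 without Scram A (adjusted p = 0.000613) and -1.81 with the length trend removed (adjusted p = 0.00210). Atp6v1c1, a proton pump subunit gene, also fell (log2 fold change -2.01, SE 0.38, adjusted p = 0.0169). The calls of Sec61b and Atp6v1c1 were lost without any 1 shSLX4IP library, with adjusted p of up to 0.0768 and 0.0655.

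Rab2a, whose product is a known partner of the Ica1 protein, is named for that reason after its values were seen. It fell to 7044 ± 198 in shSLX4IP, against 13926 ± 3603 in Scram (log2 fold change -0.95, SE 0.20, adjusted p = 0.0223), while Ica1 had the opposite direction. Rab2a has 2133 exonic bases and was at 18073, 11560 and 12145 in Scram, highest in Scram A like Sec61b. The calls of Rab2a and Stx17 were not followed through the other settings. Stx17, an autophagosome fusion gene, was the 1 that rose (log2 fold change 1.01, SE 0.18, adjusted p = 0.0141). Unc13b, which like Cadps2 encodes a vesicle priming factor, was at 21.7, 12.7 and 22.3 in shSLX4IP, against 20.5, 47.6 and 47.4 in Scram. The groups overlapped and it did not pass (adjusted p = 0.223).

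Among calcium-binding genes other than Ncald and Calb1, 4 of 6 placed genes were tested and 1 was called. That gene, Nipsnap3b, is not itself known as a calcium-binding gene, and fell to 488 ± 61.0 in shSLX4IP, against 1177 ± 256 in Scram (log2 fold change -1.25, SE 0.22, adjusted p = 0.0124). Its call was lost without shSLX4IP B or C, with an adjusted p of up to 0.0601. Calu, which encodes calumenin of the secretory pathway, averaged 35118 ± 476 in shSLX4IP and 36383 ± 2496 in Scram and did not pass (adjusted p = 0.727). Its log2 fold change of -0.049 changed sign after quantile normalization and with the length trend removed. Asph was at 4782 ± 164 in shSLX4IP and 4563 ± 698 in Scram (adjusted p = 0.711). Its log2 fold change of 0.079 changed sign without Scram A and with the length trend removed. Cpne3 was at 6296 ± 531 in shSLX4IP and 3110 ± 1232 in Scram (adjusted p = 0.0692). It passed after quantile normalization and without Scram A, with an adjusted p as low as 0.00542. Necab1, a calcium-binding gene of neurons, was listed at 0 throughout, like Calb1.

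Peptide hormones and other secreted signals were mostly under the filter, like Penk. Of 10 placed genes 8 were under it, with 4 at 0 in all 6 libraries, and neither of the 2 tested passed. Tac1, which encodes the precursor of the neuropeptide substance P, and Cga, the alpha subunit gene of the glycoprotein hormones, were listed at 0 in all 6 libraries. Fam3c, a secreted factor gene, averaged 1467 ± 77.5 in shSLX4IP and 1877 ± 430 in Scram (adjusted p = 0.253), and its log2 fold change of -0.33 changed sign after quantile normalization. Cpq, a secreted peptidase gene, averaged 413 ± 54.3 in shSLX4IP and 418 ± 32.0 in Scram (adjusted p = 0.933), with a log2 fold change of -0.023 that changed sign in 4 other settings.

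Of 17 placed receptor and ion channel genes, 12 were under the filter, and of 5 tested 1 rose and 2 fell. Cntfr, the receptor gene of ciliary neurotrophic factor, was at 244, 240 and 270 in shSLX4IP and was listed at 0 in each Scram library (adjusted p = 0.000336). Lpar1, a lysophosphatidic acid receptor gene, fell to 656 ± 75.8 in shSLX4IP, against 1841 ± 238 in Scram (log2 fold change -1.49, SE 0.18, adjusted p = 0.00386). Grm8, Kcnd2 and Gpr37 were listed at 0 throughout.

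Neuronal transcription factor genes had 9 placed members, with 6 at 0 in all libraries. All 3 tested were called, beside 40.3% of placed and 23.0% of all features tested, too few genes to read that share. Dlx5, a homeobox gene of forebrain and bone, was at 141, 184 and 155 in shSLX4IP and was listed at 0 in each Scram library (adjusted p = 0.000424), while its neighbour Dlx6 was at 0 in all 6. Zfp462 rose to 2385 ± 153 in shSLX4IP, against 221 ± 68.5 in Scram (log2 fold change 3.47, SE 0.27, adjusted p = 0.000914). Nr4a3, an orphan nuclear receptor gene, fell to 36.1 ± 16.2 in shSLX4IP, against 142 ± 32.4 in Scram (log2 fold change -2.004, SE 0.41, adjusted p = 0.0212). That call was lost without shSLX4IP A, shSLX4IP C or Scram C, with an adjusted p of up to 0.0892.

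**Figure D4:**
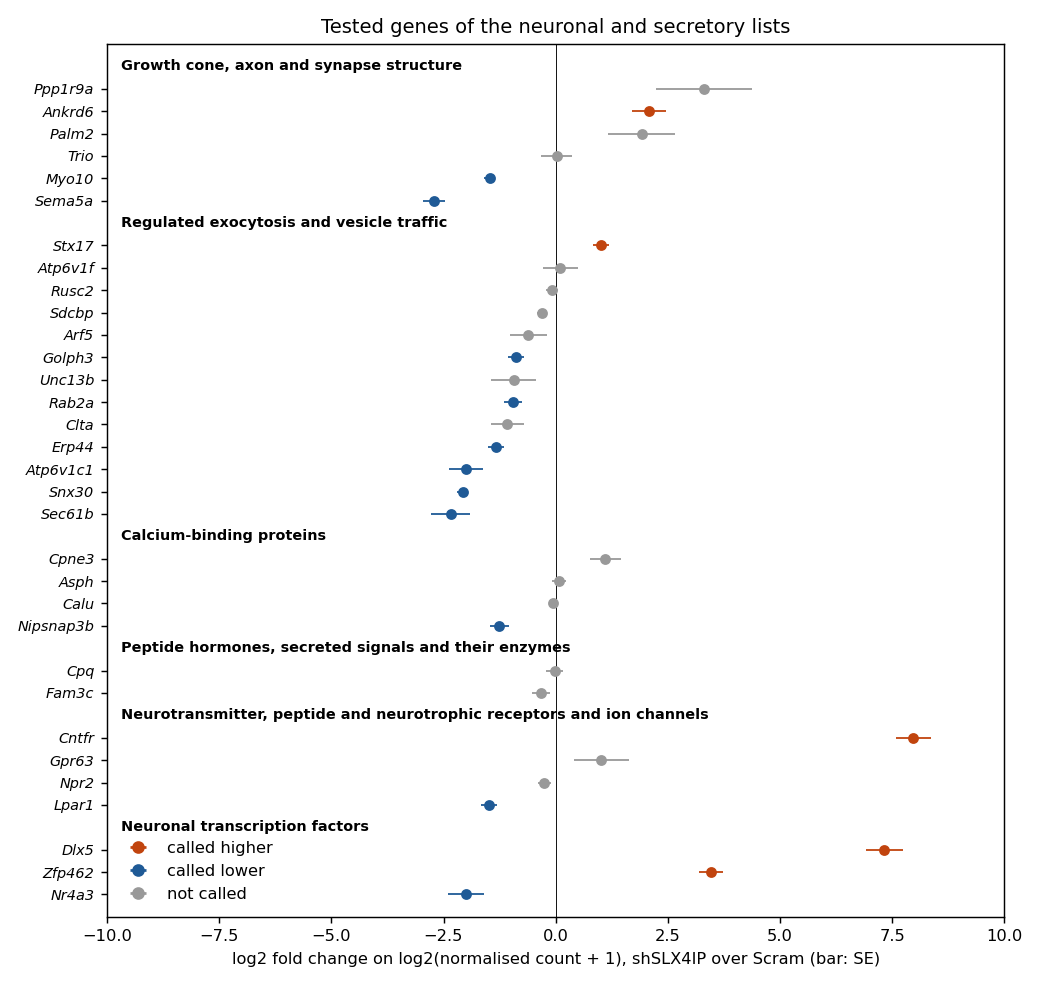
Log2 fold change on log2(normalised count + 1), shSLX4IP over Scram (horizontal axis, SE bars from limma), of 32 of the 33 tested genes of the lists by role, coloured by call. Cntfr, Dlx5 and Zfp462 are far to the right, and most vesicle traffic genes are on the left; the positions of Cntfr and Dlx5 depend on the pseudocount.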

How the data were processed

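The authors deposited a normalised signal per gene, which the table's name calls normalized counts. Tools listed in the submitters' processing notes are DESeq2 1.22.1, StringTie 2.1.7, STAR 2.7.7 and fastp 0.19.5, with the build GRCm38 (mm10). The labels name a stranded mRNA kit. For the annotation release, strand setting of the counting, filters and each tool's role, the sources used here give nothing. Each column is whole multiples of 1 step. Divided by it, 99.98% (Scram A) to 100% of values above 0 lay within 0.1 of a whole number. These whole numbers, called reads here, were used in an edgeR 4.0.16 alternative. That test called 1523 features.

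Identifiers were matched without version to GENCODE M21 (52094 of 53647). Placed genes lie in maximal-scoring runs of protein-coding genes (a mean of 1000 or more scored 3, any other -1, minimum score 30). Features with a mean of at least 10 were tested in R 4.3.3 by a 2-sided moderated test of log2(value + 1) in limma 3.58.1 with its mean-variance trend, Benjamini-Hochberg adjusted over all 8127. Fold changes on this scale understate low genes. With 3 samples against 3 an exact permutation test cannot give a 2-sided p below 0.1.

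The tests were run on simulated data with known changes, not all of which were recovered, so a gene that did not pass may still differ. Members and lists were chosen with earlier results of these data known. All 7 members are named, and for each list up to 4 called genes by size of change, or the highest tested ones where under 2 were called. Neighbours were taken by position, a choice made after the table was seen, and genes given only as at 0, the pattern genes, Rab2a, Stx17 and Unc13b were named after their values were seen. The values of 2 genes are not reported here, though they are in the counts.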

Additional observations from a re-analysis of the deposited data

How the results depend on the processing

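The columns carry letters that nothing ties to the labels' replicate numbers, so the pairing has no support from the labels, and same-lettered libraries did not deviate together (r = -0.021, -0.0093 and -0.00073 for A, B and C across the tested features, with -0.017 to 0.018 for other letters). A replicate block by letter, chosen after seeing the data, gave 365 higher and 309 lower calls over all features, 35 and 47 over placed genes and 3 and 5 over the lists. Other pseudocounts, TMM factors, quantile normalization, other filters, edgeR on recovered reads, adjustment over placed features only, a segment value of 300 and removal of a length trend (not run over all features) left each count of calls within 1.5 times. Leaving out 1 library gave 433 to 1895 higher calls and 410 to 1573 lower calls over all features. For placed genes these were 40 to 134 and 58 to 167, and for the lists 3 to 8 and 6 to 15, with the highest counts without Scram A. No member reversed. The log2 difference of Ncald was -6.13 with a pseudocount of 5, and that of Ica1 was 3.87 with the length trend removed, and the cause was not tested. Leaving out 1 library gave -8.83 to -7.39 for Ncald, 3.38 to 3.76 for Ica1, 3.22 to 5.27 for Prrt4 and a difference of means of -333 to -215 for Basp1. Of 13 named list genes called, 7 kept their call in every setting tested, the block included. The 4 that reversed were not called: Calu at 0.54 after quantile normalization and 0.064 with the length trend removed, Asph at -0.38 with the trend removed and -0.047 to 0.17 on leaving out 1 library, and Fam3c at 0.021 after quantile normalization. Cpq was at 0.0049 after quantile normalization, 0.058 with the trend removed and -0.12 to 0.061 on leaving out 1 library. Depth limits Penk and the Scram values of Prrt4, which rest on 12 reads or fewer.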

Other observations

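Within-group zeros were checked because several results rest on values of 0. Ndufa5, a complex I subunit gene beside Cadps2 with 1032 exonic bases, was at 0, 1361 and 0 in shSLX4IP, against 0, 0 and 2937 in Scram. Pakap was at 1167, 1040 and 1180 in shSLX4IP, against 0, 308 and 342 in Scram. Gm45062, which spans Glcci1 beside Ica1, was at 0 in each shSLX4IP library, against 0, 58.9 and 144 in Scram. These were the 3 placed nuclear protein-coding genes, of 354 with a mean of at least 10, that had a 0 beside a value of 100 or more within a group.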
